A study of Mus musculus with 8 samples.

Results

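The 8 genes described here, Insm1, Neurod6, Neurod1, Nhlh1, Myt1, Hes6, Bcl11a and Mycl, encode transcription factors that are best known from developing neurons and other neurosecretory cells. They were chosen by symbol among the 27998 genes counted in every library, and the choice was made because of their levels in converted hair cells (cHCs) in these same data. Their levels in cHCs relative to other cells are therefore given as a description without a test. Tests are given only for the 2 ages of cHCs, for supporting cells (SCs) with and without induction, and for other genes of the same pathway. The cHCs behind the choice came from both ages, so the test between the ages is not free of that choice.

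Single-cell RNA-seq was performed on 8 preparations of mouse organ of Corti. All groups shared the genotype Fgfr3iCre+, Atoh1-HA+, Chrna9-GFP+ and Rosa26-CAG-loxP-stop-loxP-tdTomato+, in which a tamoxifen-dependent Cre, active in Deiters' and pillar SCs, switches on HA-tagged Atoh1 and tdTomato, and GFP reports Chrna9. Induced animals received tamoxifen at postnatal day 12 to 13 and were sampled at P26 (Coch + Tmx P26, 3 libraries) or P33 (Coch + Tmx P33, 2 libraries), and uninduced animals were sampled at P12 (Coch P12, 2 libraries) or P33 (Coch P33, 1 library). Age and induction could be separated only at P33, and the labels did not say whether replicates were separate animals, so p-values measure the spread between libraries. All animals carried the Atoh1-HA allele, the Cre reaches only cells with an active Fgfr3 promoter, and no group carried the Cre without the Atoh1-HA allele.

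Atoh1 is the basic helix-loop-helix (bHLH) factor that starts hair cell differentiation. In neural lineages, factors of this class switch on a second tier of bHLH and zinc finger factors, among them Neurod1, Neurod6, Nhlh1, Insm1 and Myt1, while Notch signalling through Hes and Hey repressors holds the program back in neighbouring cells. In the cochlea, the same Notch pathway separates hair cells from SCs, and Insm1 is known from the early, transient phase of outer hair cell development.

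Classes of cells were set by gates on marker genes, none of them a transcription factor. Of 5982 cells kept after filtering, 114 were gated as cHCs (at least 8 of 16 hair cell genes with a UMI, a unique molecular identifier that marks 1 captured transcript, and under 10 UMIs per 10000 of 4 genes of mature hair cells), 60 as endogenous hair cells (HCs), 133 as SCs and 96 as neurons. Genes outside the gates were read as a check. Levels are given as CPM, UMIs of the gene per 1000000 UMIs of the class. Pou4f3, a hair cell factor, was at 585 CPM in cHCs (1048 UMIs) and 790 CPM in HCs (461 UMIs). It was detected in 65.8% of cHCs and 98.3% of HCs, with 0 UMIs in SCs and 1 in neurons. Gfi1 was detected in 36.0% of cHCs, 65.0% of HCs and 0.752% of SCs. Sox10, an SC factor, was detected in 71.4% of SCs and 17.5% of cHCs. Sox2, also a factor of SCs, separated these 2 classes little, at 79.7% of SCs and 68.4% of cHCs (196 and 179 CPM). Fgfr3, used in the SC gate alone, was at 302 CPM in SCs and 266 CPM in cHCs. Ocm, the oncomodulin of mature outer hair cells, was used in the gate and stood at 8.38 CPM in cHCs and 15590.0 CPM in HCs. Of the cHCs, 18 lay exactly at the lineage minimum, and 15 further cells lay 1 gene below it. Among cells of the lineage, 15 had between 2 and 10 mature-panel UMIs per 10000 and 7 between 10 and 20.

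The cHCs numbered 24, 4 and 0 in Coch + Tmx P26 rep 1 to 3 and 43 and 42 in Coch + Tmx P33 rep 1 and 2, and 1 cHC came from an uninduced library. The lineage minimum was set to leave at most 1 uninduced cell among cHCs, so this last count was fixed by the gate. All 8 members had 0 UMIs in that uninduced cell, a single profile of 12051 UMIs. The library labelled Coch + Tmx P26 rep 3 stood apart: besides holding no cHCs, its 35 SCs had Atoh1 at 34.0 CPM, against 43.0 to 61.2 CPM in uninduced SCs and 386 to 1003 CPM in SCs of the other induced libraries. Libraries held 3972800 to 13423524 UMIs, no pair of libraries shared more than 3 cell barcodes, and 41 of 6023 scored barcodes were removed as doublets, none of them in the cHC gate. Clustering without these factors placed 101 of the 114 cHCs in 1 cluster of 147 cells, which also took in SCs of the induced libraries.

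All intervals given with levels, ratios and shares are 95% exact Poisson or binomial (Clopper-Pearson) intervals and cover counting error only. A level with 0 UMIs is followed, where given, by the level that 3 UMIs would make. In sums over cells, fewer expressing cells and less RNA per cell cannot be told apart, so shares of cells with a UMI are given at a fixed depth of 2000 UMIs per cell.

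RefSeq promoter windows of 300 bases, from 250 bases before the start to 50 after it, were available for 7 of the 8 genes on build GRCm38.p6, which carries the mm10 coordinates. bHLH factors bind E-boxes, spelled CANNTG, and forms with the cores CAGATG (read on both strands) and CAGCTG, which is its own reverse complement, are the ones known for Atoh1 and its relatives. These overlap with the general form by construction. Of 32851 windows of all genes, 72.3% held CANNTG, 17.2% held CAGATG and 16.3% held CAGCTG. Among the members, the specific cores were found only in Hes6 and Nhlh1. All of these matches are shown here as 30-base stretches of the gene's own strand, with the core in capitals.
Hes6, upstream start, chr1:91414192-91414221, minus strand: cggaagcggctgCAGCTGccaactgtcacg
Hes6, downstream start, chr1:91413355-91413384, minus strand: gctccgccccgcCAGCTGccagagacccgc
Nhlh1, chr1:172057782-172057811, minus strand: atgcatggagaaCAGATGtccctgctcccc
The first base of the core lay at -171 and -150 from the 2 Hes6 starts and at -203 from the Nhlh1 start. Windows of Neurod6, Neurod1, Bcl11a and Mycl held 1 or 2 general E-boxes and neither core, and of the 3 Myt1 windows 1 held none. A match is a stretch of letters, not evidence of binding.

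Hes6, on chromosome 1 (91411483 to 91414038, GRCm38.p6), encodes a Hes-related factor that opposes Hes1 and promotes neuronal differentiation. In cHCs of Coch + Tmx P26, rep 1 held 1201 CPM (1076 to 1337; 336 UMIs) and the 4 cells of rep 2 held 966 CPM (747 to 1229). In those of Coch + Tmx P33, rep 1 held 576 CPM (523 to 633) and rep 2 held 393 CPM (347 to 443). Both P26 libraries lay above both P33 libraries. Over the 3 libraries with at least 5 cHCs and 5 SCs, the pooled level in cHCs was 1.84 times that in SCs (1.56 to 2.17). In the same libraries it was 22.0 times that in HCs (8.55 to 80.8) and 36.0 times that in neurons (22.7 to 61.1). Ratios to HCs, here and below, rest on the 4, 6 and 5 HCs of these libraries. They leave out the HCs of all other libraries, among them those of P12. Hes6 was also present at a low level outside the lineage, with 34.2 CPM in macrophages and 15.1 CPM in Schwann cells.

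Mycl (chromosome 4, 122995588 to 123002490), a member of the Myc family, had a similar distribution. In cHCs, rep 1 and rep 2 had 250 (195 to 316) and 307 CPM (190 to 470) at P26 and 308 (270 to 350) and 228 CPM (193 to 267) at P33, so the ages overlapped. The pooled level in cHCs was 2.84 times that in SCs (2.11 to 3.90). In HCs, 20 of its 27 UMIs came from the 29 HCs of Coch P12 rep 1, at 81.4 CPM. Neurons were at 0 to 5.75 CPM.

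Insm1 (chromosome 2, 146221997 to 146225020), a zinc finger factor of neuroendocrine and neural progenitors, was close to restricted to cHCs. At P26 its levels were 118 CPM (81.2 to 166) in rep 1 and 87.8 CPM (32.2 to 191) in rep 2. At P33 they were 116 CPM (92.9 to 143) in rep 1 and 126 CPM (101 to 156) in rep 2, so the ages overlapped. SCs had 2 UMIs in Coch + Tmx P26 rep 1, 3 in Coch + Tmx P33 rep 2 and 0 in the other 6 libraries, a pooled cHC to SC ratio of 12.6 (5.30 to 39.1), which was 7.09 (2.95 to 22.2) without Coch + Tmx P33 rep 1 and 19.0 (5.14 to 158) without rep 2. The only HCs with Insm1 came from P12, with 1 UMI in each Coch P12 library. It had 0 UMIs in neurons, where the pooled level in cHCs was at least 43.0-fold higher against a limit of 3 UMIs, and 0 UMIs in the 5579 cells outside the 4 classes.

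Neurod6 (chromosome 6, 55677818 to 55681263), a bHLH factor of postmitotic cortical neurons, shared this restriction but with a different order by age. Among cHCs of Coch + Tmx P26, rep 1 had 67.9 CPM (40.9 to 106) and rep 2 had 102 CPM (41.2 to 211). Among those of Coch + Tmx P33, rep 1 had 168 CPM (140 to 200) and rep 2 had 174 CPM (144 to 208). Both P33 libraries lay above both P26 libraries, although the interval of the 4-cell library spanned them. SCs held 3 UMIs in all, from the P33 induced libraries, and HCs 1 UMI. The pooled level was 26.8 times that in SCs (9.05 to 131) and 22.3 times that in HCs (3.97 to 885), and neurons had 0 UMIs. Resting on 3 and 1 UMIs, these ratios moved to 45.9 for SCs without Coch + Tmx P33 rep 2 and to 12.3 for HCs without rep 1.

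Nhlh1 (chromosome 1, 172052292 to 172057596), a bHLH factor of newborn neurons, was nearly absent from cHCs of Coch + Tmx P26 rep 1 and present at P33. The counts were 2 UMIs (7.15 CPM, 0.866 to 25.8) and 2 UMIs (29.3 CPM, 3.55 to 106) in the P26 libraries, against 59 UMIs (78.7 CPM, 59.9 to 101) and 57 UMIs (83.8 CPM, 63.5 to 109) in the P33 libraries. At full depth a UMI was found in 2 of 24 and 2 of 4 cHCs at P26 and in 53.5% and 50.0% of cHCs at P33. The interval of the 4-cell library included both P33 levels. SCs, HCs and neurons had 0 UMIs of Nhlh1 in all 8 libraries. Against the limit of 3 UMIs over the pooled libraries, its level in cHCs was at least 12-fold higher than in SCs, at least 3.34-fold higher than in HCs and at least 24.7-fold higher than in neurons.

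Myt1 (chromosome 2, 181763332 to 181827775), a zinc finger factor that represses Notch targets in neurogenesis, had the same order by age at lower counts. It had 2 and 0 UMIs in the P26 cHCs, against 28 UMIs (37.3 CPM, 24.8 to 54.0) and 27 UMIs (39.7 CPM, 26.2 to 57.8) in the P33 cHCs. SCs had 0 UMIs in all libraries, at least 5.80-fold below cHCs. Unlike Insm1, Neurod6 and Nhlh1, it was present in neurons, at 0 to 28.8 CPM, and the pooled cHC level was 2.23 times the neuron level (1.26 to 4.17). HCs had 1 to 3 UMIs in 5 of the 8 libraries, and the cHC to HC ratio of 4.84 had an interval that included equality (0.834 to 194), and was 2.60 without Coch + Tmx P33 rep 1.

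Bcl11a (chromosome 11, 24076564 to 24173558), a zinc finger repressor of neurons and lymphocytes, was the member whose pooled level in neurons exceeded that in cHCs. Its cHC counts were 0 UMIs in Coch + Tmx P26 rep 1 (3 UMIs would make 10.7 CPM), 4 UMIs from 1 cell in Coch + Tmx P26 rep 2 (58.6 CPM, 16 to 150), 45 UMIs in Coch + Tmx P33 rep 1 (60.0 CPM, 43.8 to 80.3) and 17 in Coch + Tmx P33 rep 2 (25 CPM, 14.6 to 40.0). The P33 libraries differed from each other beyond counting error. Neurons ranged from 43.7 to 114 CPM over the 8 libraries, and the pooled cHC level was 0.589 times the neuron level (0.410 to 0.846). This rested on 2 of 3 libraries: the ratio was 0 in Coch + Tmx P26 rep 1 and 0.335 (0.170 to 0.640) in Coch + Tmx P33 rep 2, but 0.913 (0.548 to 1.55) in Coch + Tmx P33 rep 1, without which the pooled ratio was 0.299 (0.159 to 0.538).

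Neurod1 (chromosome 2, 79452637 to 79456636), the bHLH factor required for survival of cochlear neurons, was the scarcest member. It had 0 UMIs in P26 cHCs, 13 UMIs in 4 cells of Coch + Tmx P33 rep 1 and 3 UMIs in 2 cells of Coch + Tmx P33 rep 2, and 8 of the 13 lay in 1 cell. SCs and HCs had 0 UMIs in every library, and neurons had 3 UMIs in Coch P12 rep 1 and 1 each in 2 induced libraries. Its level in cHCs was at least 1.63-fold higher than the limit of 3 UMIs in SCs, and 10.0 times the neuron level with an interval of 1.56 to 421, which included equality without Coch + Tmx P33 rep 1 (2.16, 0.174 to 113).

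**Figure D1:**
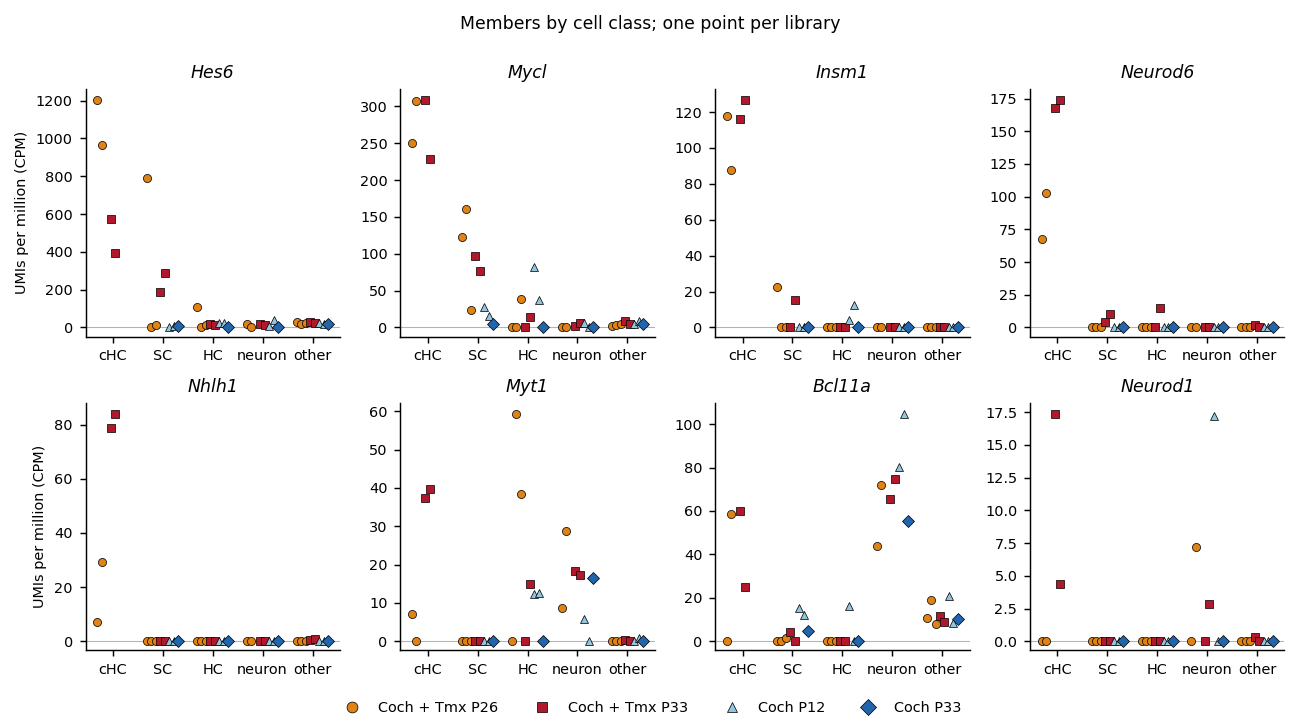
Levels of the 8 genes (vertical axes, CPM, linear and separate for each gene) in cHCs, SCs, HCs, neurons and all other cells, with 1 point per library that had at least 3 cells of the class, coloured by group. Insm1, Neurod6 and Nhlh1 lie near 0 outside cHCs, Hes6 and Mycl are also raised in SCs of most induced libraries, and Bcl11a is highest in neurons.

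Shares of cells at equal depth were higher in cHCs than in the other cells named here for Hes6, Insm1, Neurod6, Nhlh1 and Mycl. With each cell thinned to 2000 UMIs, Hes6 was detected in 58.8% of the 114 cHCs (49.2 to 67.9), 14.3% of SCs, 3.33% of HCs and 1.04% of neurons, and in 6.95% of macrophages (5.03 to 9.31). The Hes6 shares of HCs and neurons were below the macrophage share and are not read as expression, and whether the macrophage share is free RNA or expression was not tested. Insm1 was detected in 20.2% of cHCs (13.2 to 28.7), Neurod6 in 18.4% and Nhlh1 in 13.2%, and each in 0 of 590 macrophages, which allows a share of up to 0.508%. Mycl was detected in 40.4% of cHCs, 7.52% of SCs and 0.847% of macrophages. Before thinning, a UMI of Hes6 was found in 90.4% of cHCs and 22.2% of macrophages, and a UMI of Insm1 in 65.8% of cHCs and in no macrophage. The other members did not separate cHCs from neurons in this way. At full depth, Bcl11a was detected in 28.1% of cHCs and 67.7% of neurons. Myt1 was detected in 29.8% and 30.2%, and Neurod1 in 5.26% and 4.17%. Median depth was 13410.0 UMIs in cHCs, 22070.5 in neurons and 6066 in macrophages.

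UMIs of several members were often detected in the same cHC. At 2000 UMIs per cell, 50.0% of cHCs had UMIs of at least 2 members, against 3.01% of SCs, 1.67% of HCs, 2.08% of neurons and 0.235% of other cells. At full depth the median cHC had UMIs of 4 of the 8 genes and the richest cHC of 7, and the median SC, HC and neuron of 1. Insm1 and Neurod6 were both detected in 28 of 43 cHCs of Coch + Tmx P33 rep 1 and in 21 of 42 of Coch + Tmx P33 rep 2, where each was found without the other in 2 and 7 cells and in 9 and 6 cells. Of the 6 cells with Neurod1, none had Bcl11a, which was detected in 20 of 43 and 11 of 42 cHCs of these libraries. These cells share libraries and depth. The members were chosen for their levels in cHCs, so the contrast with the other classes is part of that choice. Whether members shared cells more often than their single shares would give was not tested.

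To ask how the factors differed between the 2 ages after induction, counts of cHCs were summed per library and tested with edgeR, and the fit used 2 libraries of P33 and 1 of P26, since a minimum of 5 cells left Coch + Tmx P26 rep 2 out. With 1 library at P26, the fit assumes that it varies like the P33 libraries. The test called 1 of 8613 genes (0.0116%), and this was no member. At unadjusted p under 0.05 there were 1267 genes, and DESeq2 called 81. None of the members passed, so their values are given without a call. In the P26 library of this fit, Nhlh1, Myt1 and Bcl11a had 2, 2 and 0 UMIs. They could pass the filter on low counts through the P33 libraries alone. Their p-values and the number of fits past the threshold are therefore not read as support. Among the alternative fits counted below for each member, some repeated the reported fit and had to keep its sign. These were the fit with doublets kept, a minimum of 10 cells, and a minimum of 4 cells without Coch + Tmx P26 rep 2.

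The log2 difference of Hes6 between P33 and P26 was -1.41 (SE 0.30, edgeR adjusted p = 0.163), and its pooled level at P33 was 0.423 times that at P26 (0.374 to 0.480 by counting error). Its share of cHCs at 2000 UMIs was 22 of 24 cells (91.7%, 73.0 to 99.0) and 4 of 4 in the P26 libraries against 58.1% (42.1 to 73.0) and 38.1% (23.6 to 54.4) at P33. The direction was kept in all 15 alternative fits, from -1.81 to -0.86, with adjusted p from 1.58e-05 to 0.696 and 4 of them past the threshold.

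That of Nhlh1 was 3.36 (SE 0.54, edgeR adjusted p = 0.15), and its pooled ratio was 7.06 (2.68 to 26.3). At 2000 UMIs it was found in 1 of 24 and 0 of 4 cHCs at P26 and in 16.3% and 16.7% of cHCs at P33. Over 14 alternative fits the value ran from 1.60 to 3.51 and the adjusted p from 5.87e-05 to 0.945, with 5 past the threshold. Neurod6 (1.22, SE 0.31, adjusted p = 0.199) and Myt1 (2.29, SE 0.61, adjusted p = 0.210) had the same sign in every alternative that could be fitted, of which 1 of 15 and 0 of 13 passed the threshold.

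The fitted log2 difference of Bcl11a, 7.60 (SE 2.15, edgeR adjusted p = 0.231), depends on the prior count because the P26 library in the fit had 0 UMIs. The sign turned without Coch + Tmx P26 rep 1, when Coch + Tmx P26 rep 2 with its single Bcl11a-positive cell stood for P26 (-0.31, SE 0.98, adjusted p = 0.943, against 0.000378 to 0.996 over all alternatives). Insm1 (-0.07, SE 0.29, adjusted p = 0.936) and Mycl (-0.01, SE 0.30, adjusted p = 0.998) had pooled ratios of 1.08 (0.759 to 1.57) and 1.03 (0.820 to 1.31). Atoh1 itself was at 2449 and 3206 CPM in the P26 libraries and 2935 and 3122 CPM in the P33 libraries, which overlapped (0.20, SE 0.20, adjusted p = 0.665). The files count 3′ ends under the symbol Atoh1, so transcripts of the transgene were counted there only as far as they share that end.

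With a minimum of 4 cells, chosen after seeing the data, both P26 libraries entered and 9 of 6529 genes were called (0.138%), 6 higher (0.0919%) and 3 lower at P33 (0.0459%), again no member. Nhlh1 then had an adjusted p of 0.0745 in edgeR. Several measures differed between P26 and P33 in the cHCs, and some of them also in neurons of the same libraries. The median mitochondrial share was 6.48% and 6.72% at P26 and 12.6% and 13.4% at P33, and the summed level of 5 macrophage markers was 14.3 and 58.6 CPM at P26 and 821 and 69.1 CPM at P33, where all 5 were detected. Stromal markers (5 genes) were at 10.7 and 14.6 CPM at P26 and 108 and 104 CPM at P33, and neutrophil markers (3 genes) at 46.5 and 87.8 against 164 and 141 CPM. Schwann cell markers (5 genes) went the other way, from 182 and 527 to 69.3 and 107 CPM, as did erythroid markers (3 genes), from 2535 and 1727 to 1043 and 1537 CPM, and 3 endothelial markers summed to 0 to 7.15 CPM. In neurons of these libraries, erythroid markers also fell, from 2535 and 1650 to 1096 and 1541 CPM, and Schwann cell markers from 777 and 353 to 281 and 37.4 CPM. Neutrophil markers rose there from 55.3 and 144 to 150 and 213 CPM, and macrophage markers from 29.1 and 7.20 to 63.1 and 46.0 CPM. Stromal markers of neurons fell instead, from 96.0 and 28.8 to 26.3 and 17.2 CPM. With cells under 10% mitochondrial UMIs, Hes6 was at -1.81 (SE 0.60, adjusted p = 0.423) and Nhlh1 at 2.31 (SE 2.02, adjusted p = 0.945). Their part in the age difference was otherwise not tested.

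**Figure D2:**
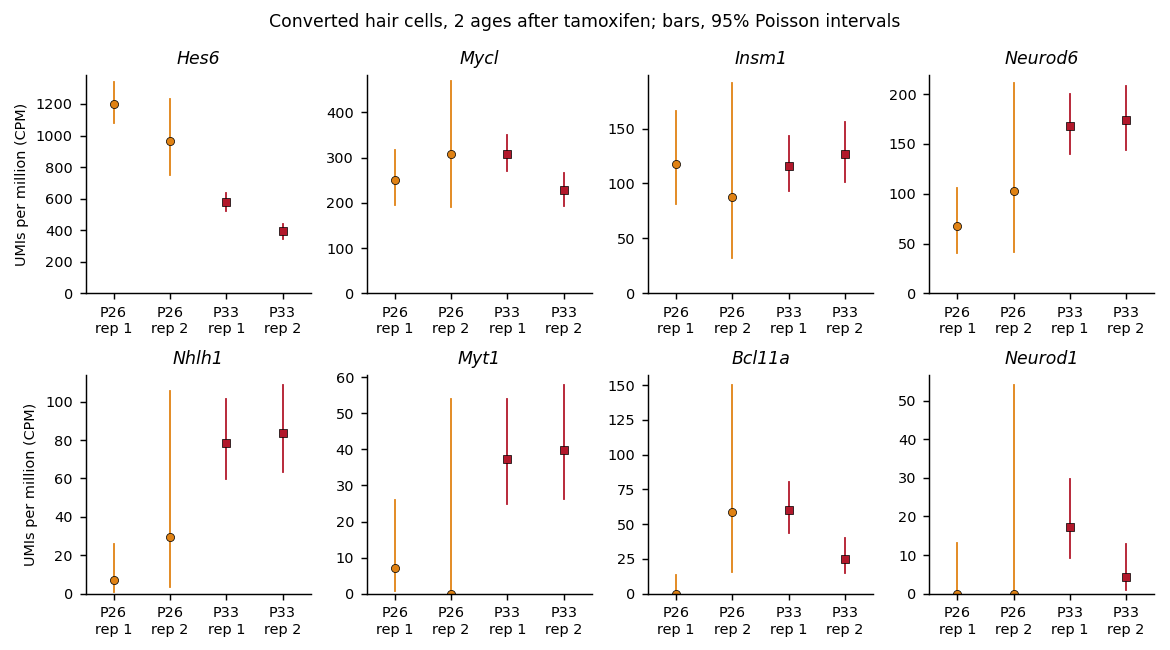
Levels of the 8 genes (vertical axes, CPM, from 0 and separate for each gene) in cHCs of the 4 induced libraries that held any, with 95% Poisson intervals as bars. Hes6 is lower in both P33 libraries, and Nhlh1 and Neurod6 are higher there, with wide intervals for the 4 cells of P26 rep 2.

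SCs of induced and uninduced libraries were compared to ask which factors were present in cells that had kept SC markers. In SCs of Coch + Tmx P26, the 5 cells of rep 1 had Hes6 at 792 CPM (618 to 998), the 3 cells of rep 2 had 0 UMIs, and the 35 cells of the library labelled rep 3 had 14.6 CPM (6.66 to 27.6). In SCs of Coch + Tmx P33, rep 1 had 187 CPM (136 to 250) and rep 2 had 291 CPM (220 to 377). The uninduced SCs were at 3.06 and 6.13 CPM in Coch P12 and 6.79 CPM in Coch P33, with 1 to 3 UMIs each. All 4 induced libraries with at least 5 SCs lay above all 3 uninduced ones, and rep 3 of Coch + Tmx P26 was the nearest to them. At 2000 UMIs, Hes6 was found in 46.7% and 43.8% of SCs in Coch + Tmx P33, 3.85% in Coch P33 and 0% in both Coch P12 libraries.

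Mycl followed at a smaller scale, with 123, 161 and 24.3 CPM in the Coch + Tmx P26 libraries, 97.5 and 76.5 CPM in Coch + Tmx P33, and 27.6, 15.3 and 4.53 CPM in the uninduced libraries. Here the library labelled Coch + Tmx P26 rep 3 lay among the uninduced ones. The other members were scarce in SCs. SCs had 5 UMIs of Insm1 and 3 of Neurod6 in all, each from induced libraries, 0 UMIs of Nhlh1, Myt1 and Neurod1, and Bcl11a at 0 to 4.24 CPM in induced and 4.53 to 15.3 CPM in uninduced libraries.

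Hes6 and Mycl were the only members that passed the filter on low counts, which they could pass through the induced libraries alone. Over the 4 induced and 3 uninduced libraries, edgeR called 0 of 4494 genes (0%), with 405 at unadjusted p under 0.05 and 42 called by DESeq2. The log2 difference of Hes6 was 5.62 (SE 1.24, edgeR adjusted p = 0.273) and that of Mycl 2.19 (SE 0.65, adjusted p = 0.375). Each library was left out in turn, and 1 of these fits moved the values most. With rep 3 of Coch + Tmx P26 left out, the library named above for its low Atoh1, 106 of 3907 genes passed the threshold (2.71%), with Hes6 at 6.04 (SE 0.72, edgeR adjusted p = 0.00287), Mycl at 2.56 (SE 0.53, edgeR adjusted p = 0.0341) and Atoh1 at 3.68 (SE 0.44, edgeR adjusted p = 0.00287). As that library was singled out on these data, and as both members entered through the induced libraries, these p-values are given to show how far 1 library moves the fit, and no call is drawn from them. With the replicate number as a block, 79 genes passed (1.76%), with Hes6 at 6.07 (SE 0.74, edgeR adjusted p = 0.0059). Over all alternatives the adjusted p of Hes6 ran from 3.43e-13 to 0.920 and that of Mycl from 2.57e-05 to 1.

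At P33, where age did not differ, 2 induced libraries were set against 1 uninduced library, and 464 of 4292 genes passed (10.8%). Hes6 was at 4.82 (SE 0.62, edgeR adjusted p = 8.71e-13) and Mycl at 3.93 (SE 0.79, edgeR adjusted p = 2.57e-05). Coch P33, with 3 Hes6 and 2 Mycl UMIs, is assumed in this fit to vary like the 2 induced libraries, from which the whole spread was estimated, so these p-values are not read as calls either. The SC gate is not a class of unconverted cells. Clustering left no cell of either Coch + Tmx P33 library in the SC cluster, so that the comparison by cluster kept 1 induced library, the one labelled Coch + Tmx P26 rep 3, and there the log2 difference of Mycl was -0.49 (SE 1.04, adjusted p = 1) and that of Atoh1 -0.19 (SE 0.64, adjusted p = 1).

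**Figure D3:**
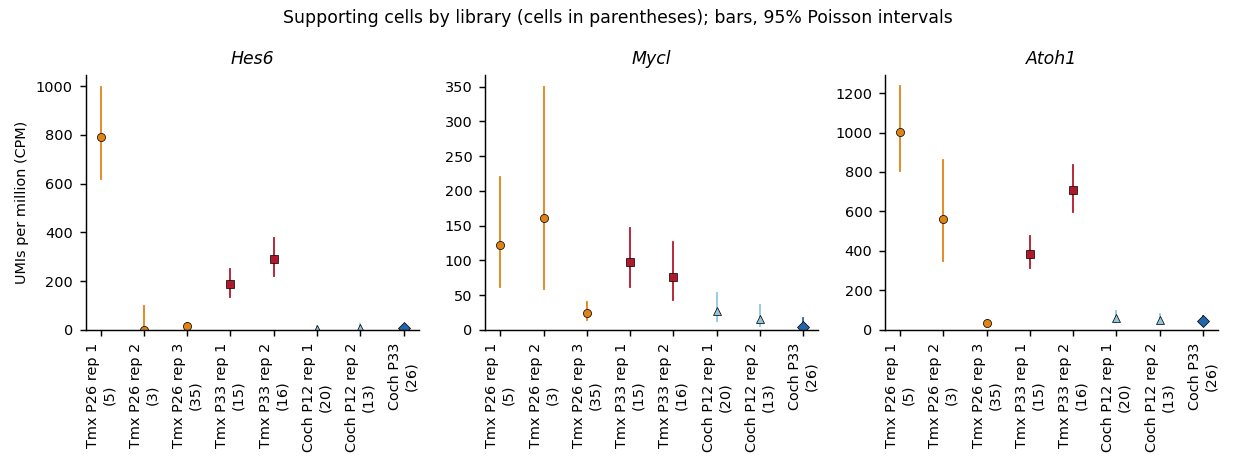
Hes6, Mycl and Atoh1 in SCs of each of the 8 libraries (vertical axes, CPM, from 0), with the number of SCs in parentheses and 95% Poisson intervals as bars. The library labelled Coch + Tmx P26 rep 3 (14.6, 24.3 and 34.0 CPM) lies with or next to the uninduced libraries, apart from the other induced libraries with at least 5 SCs.

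The cHCs themselves varied, and the members differed in how they varied. Each library's cHCs were divided at the median of the share of UMIs from the 16 hair cell genes, and levels in the upper and the lower part are given as a description. Pou4f3, not used in the division, was 3.92 times higher in the upper part (3.37 to 4.58) and Sox2, a factor of SCs, 0.525 times (0.408 to 0.671). The parts had similar depth, with medians of 12980 and 14186 UMIs in Coch + Tmx P33 rep 1, but the mitochondrial share was 14.7% in the upper and 10.9% in the lower part there.

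Bcl11a, Myt1 and Nhlh1 lay mainly in the upper part. Pooled ratios here and below are over all 3 divided libraries, with Coch + Tmx P26 rep 1 included. In Coch + Tmx P33 rep 1 and rep 2, Bcl11a stood at 111 and 42.4 CPM in the upper and 17.8 and 10.7 CPM in the lower part. Its pooled ratio was 5.11 (2.63 to 10.9). Myt1 stood at 66.0 and 68.5 CPM against 12.7 and 16.1 CPM, a pooled ratio of 4.60 (2.34 to 9.87), and Nhlh1 at 126 and 143 CPM against 38.2 and 34.8 CPM, a pooled ratio of 3.37 (2.19 to 5.33). All 3 genes were higher in the upper part of both P33 libraries, with intervals of each library's ratio above 1. In Coch + Tmx P26 rep 1, Nhlh1 had 1 UMI in each part, and the interval of the lower part (0.200 to 44.0 CPM) included the lower-part levels at P33.

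For Insm1, Neurod6, Hes6 and Mycl the pooled upper to lower ratios were 1.49 (1.12 to 2.0), 1.53 (1.19 to 1.98), 1.36 (1.2 to 1.54) and 1.29 (1.07 to 1.56), in the range of Atoh1 (1.53, 1.45 to 1.62). The pattern was not shared by all libraries. In Coch + Tmx P26 rep 1, Hes6 was at 1136 CPM in the upper and 1281 CPM in the lower part, both above each part of the P33 libraries (340 to 726 CPM), while Insm1 was at 176 CPM (116 to 256) in the upper and 47.4 CPM (17.4 to 103) in the lower part. Neurod6 there was at 111 against 15.8 CPM (17 against 2 UMIs), a ratio of 7.02 (1.67 to 62.6), the highest that could be computed for a member in any of the 3 libraries. In Coch + Tmx P33 rep 2, Insm1 was at 130 and 123 CPM. Neurod1 had the opposite distribution, with 15 of 16 UMIs in the lower part, 13 of them from 4 cells of Coch + Tmx P33 rep 1.

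**Figure D4:**
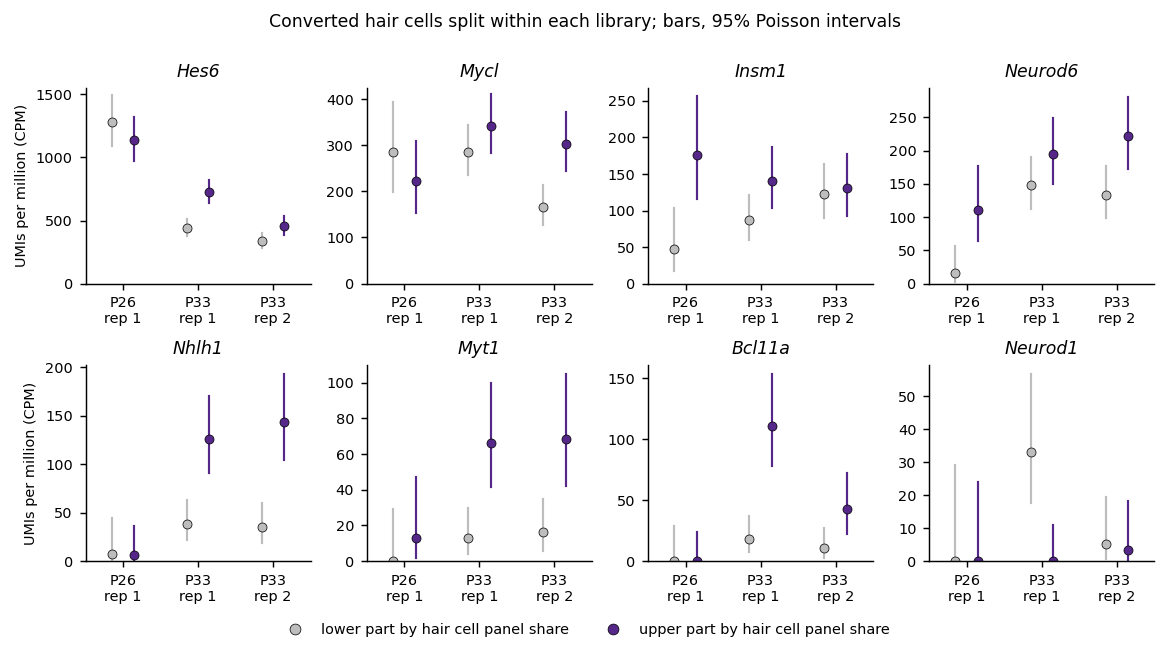
Levels of the 8 genes (vertical axes, CPM, from 0) in the lower (grey) and upper (purple) part of the cHCs of 3 libraries, divided at each library's median share of UMIs from 16 hair cell genes, with 95% Poisson intervals as bars. Nhlh1, Myt1 and Bcl11a are higher in the upper part of both P33 libraries, and Hes6 is highest in both parts of P26 rep 1.

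The genes whose levels were most like each member were found by Pearson's correlation of log2(CPM + 10) over 28 sums of library and class, among 8540 genes with at least 20 UMIs in cHCs. The points share libraries, and most of the spread is the step between cHCs and the other classes, so the values describe these sums only. Insm1 was most like Scn11a (r = 0.961), Zmat4 and Hsd11b2, Neurod6 most like Ttc34 (0.972), Neurl1b and Slc52a3, and Nhlh1 most like Pifo (0.998), Vwa2 and Tac4. Hes6 was most like Dll3 (0.962), a Notch ligand that acts inside the cell that makes it, then Grp, and Mycl most like Krt7 (0.911), Art5 and the gate gene Rasd2. Myt1 was most like Foxj1 (0.882), Ica1l and Ercc6, and Bcl11a most like Tceal5 (0.908), Prkaa1 and Mical3. Among the members, Neurod6 and Nhlh1 (0.920) and Insm1 and Neurod6 (0.903) were the most alike and Hes6 and Bcl11a the least (-0.302). Neurod1 had too few UMIs in cHCs (16) to enter.

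The rest of the neurogenic and Notch program was read from a list of 57 other genes, compared between cHCs and SCs of the same 3 libraries with library as a block. Over all genes, 981 of 3877 were called (25.3%), 532 higher in cHCs (13.7%) and 449 lower (11.6%). Of the list, 22 genes could be tested and 12 were called. In cHCs, 4 rose and 8 fell, and the median log2 fold change of the 22 was -0.28, against 0.03 over all genes tested. The sign of this median was not stable. It was 0.355 without a filter, where 11 rose and 12 fell of 49 tested. Without Coch + Tmx P26 rep 1 it was 0.127, with 11 up and 11 down of 34 tested, and without Coch + Tmx P33 rep 1 it was 0.138. A minimum of 10 cells also left out Coch + Tmx P26 rep 1. In the remaining alternatives the median lay between -0.446 and -0.281. The list was drawn up with earlier results of these data known.

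The genes that rose were granins of neurosecretory cells, 1 splicing factor and 1 bHLH partner. Chga and Chgb, granins of dense-core vesicles, had log2 fold changes of 4.38 (SE 0.50, edgeR adjusted p = 0.000961) and 3.16 (SE 0.61, adjusted p = 0.00702). Srrm4, the splicing factor of neural microexons that hair cells also use, was at 2.10 (SE 0.37, adjusted p = 0.00498), and Tcf4, an E-protein that pairs with Atoh1-type factors, at 1.39 (SE 0.36, adjusted p = 0.0253). Chga and Srrm4 were called in all 12 alternatives, Chgb in all 11 that tested it and Tcf4 in 8 of 12. Not all of these were separate fits. Keeping doublets gave the reported counts again, and a minimum of 10 cells gave the same fit as leaving out Coch + Tmx P26 rep 1.

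The genes that fell were those of the Notch pathway and the Id inhibitors of bHLH factors. Jag1, a Notch ligand of SCs, was at -2.11 (SE 0.49, edgeR adjusted p = 0.0157), the receptor Notch1 at -1.77 (SE 0.52, adjusted p = 0.0378) and the glycosyltransferase Lfng at -1.82 (SE 0.43, adjusted p = 0.0178). The repressors Hes1 (-1.98, SE 0.43, adjusted p = 0.0120), Hey1 (-1.76, SE 0.28, adjusted p = 0.00322) and Heyl (-1.45, SE 0.41, adjusted p = 0.0346) and the inhibitors Id2 (-1.25, SE 0.30, adjusted p = 0.0176) and Id3 (-1.24, SE 0.31, adjusted p = 0.0201) were lower as well. Dll3 (0.61, SE 0.28, adjusted p = 0.149) and Mfng (-0.61, SE 0.23, adjusted p = 0.0880) did not pass, nor did the E-proteins Tcf3 and Tcf12. Each of the 8 kept its sign in every alternative and lost its call in 2 to 5 of 12. With cells under 10% mitochondrial UMIs none of the 8 was called, with log2 differences of -1.64 (Jag1, SE 0.54, edgeR adjusted p = 0.123) to -0.45 (Id3, SE 0.39, edgeR adjusted p = 0.583), and the 2 calls of the list were Chga and Srrm4. The median mitochondrial share was 10.9% in all cHCs and 5.47% in all SCs, and its part in the result was otherwise not tested. Atoh1 was 2.15 higher on the log2 scale in cHCs (SE 0.29, adjusted p = 0.00160).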

How the data were processed

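Processed files of 8 single-cell RNA-seq libraries (10x Genomics Chromium 3′ v2) were analysed. The authors had aligned reads to mm10 with Cell Ranger (version not given in the sources used here), and the deposited values are unnormalised UMI counts per gene and barcode. Of 8061 barcodes, 1954 had fewer than 500 genes and 84 had 25% or more mitochondrial UMIs, and these were left out, as were the top doublet scores (scrublet in scanpy 1.11.5, 0.8% per 1000 barcodes).

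cHCs needed UMIs of 8 of 16 hair cell genes (Myo6, Myo7a, Chrna9, Chrna10, Rasd2, Pvalb, Calb1, Acbd7, Smpx, Espn, Cdh23, Ptprq, Tmc1, Loxhd1, Strc, Cib2) and under 10 UMIs per 10000 of Ocm, Slc26a5, Slc17a8 and Otof, and HCs 10 or more. SCs needed 2 UMIs of Fgfr3 and 5 of 11 SC genes, and neurons 6 of 9 neuronal genes. The minimum of 8 was set after seeing the cells, as the lowest that left at most 1 uninduced cell among cHCs. Clusters (Leiden, without the members, Atoh1 and the other neurogenic list) were an alternative.

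Counts were summed per library and class with at least 5 cells and tested with edgeR 4.0.16 (quasi-likelihood, TMM, filterByExpr, Benjamini-Hochberg adjustment over all genes tested, threshold 0.05). Fold changes and SEs are log2. Alternatives were DESeq2 1.42.0, RLE scaling, no filter, other gates, cell minimums and left-out libraries. The members and lists were chosen with earlier results of these data known. Named genes are the members, Atoh1, marker genes that check a class, the called genes of the other list and the 3 genes most like each member with at least 20 UMIs in cHCs, of which 1 is not reported here. The uncalled list genes (Dll3, Mfng, Tcf3, Tcf12), Sox2, Gfi1 and the level of Fgfr3 were given after their values were seen. Reporter and epitope tag sequences were not analysed here.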

Additional observations from a re-analysis of the deposited data

Results flagged for a closer look

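Levels of the members in each class were examined over the induced libraries with at least 5 cells of the class, in 17 sets. In 3 sets, 1 library lay far from the others by Dixon's criterion, which chance meets in about 1 of 20 sets, and all 3 were Coch + Tmx P33 rep 1 in the cells outside the 4 classes. There Neurod6 was at 2.06 CPM, against at most 0.225 CPM in the other 4 induced libraries, and its 7 UMIs lay in 3 of 417 cells, 5 of them in 1 cell. Myt1 and Neurod1 were each at 0.294 CPM, which is 1 UMI against 0 in the other induced libraries. A single UMI against zeros always meets the criterion, so nothing is read from these 2 sets.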

How the results depend on the processing

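The number of genes called between P33 and P26 cHCs, 1 in the reported fit, was 81 with DESeq2, 4 with RLE scaling, 662 without a filter, 11 with cells under 10% mitochondrial UMIs, 302 with a looser and 229 with a stricter gate and 4 with Leiden clusters. Chosen after seeing the data, a minimum of 4 cells gave 9 calls, and with each library left out 0 to 119 (92 when Coch + Tmx P33 rep 1 was left out). No paired analysis was possible because the reported fit holds 1 library at P26, where leaving out a library could not be fitted either. With a minimum of 4 cells and the replicate block, 17 genes were called. Insm1 reversed with the looser gate (0.067), Leiden clusters (0.24), 4 cells (0.13) and the block (0.17), and over the left-out libraries ran to 0.60 (also 0.12 and 0.22). Mycl reversed without a filter (0.039), with the looser (0.054) and stricter gate (0.035), with Leiden clusters (0.06) and without Coch + Tmx P33 rep 2 (0.21). Bcl11a reversed without Coch + Tmx P26 rep 1 (-0.31), and Atoh1 with cells under 10% mitochondrial UMIs (-0.25). None of these values of Insm1, Mycl and Atoh1 was past the threshold in any alternative.

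In SCs, 0 genes were called in the reported fit, 42 with DESeq2, 349 without a filter, 8 with the looser gate, 464 at P33 alone and 0 to 106 with each library left out, the highest when the library labelled Coch + Tmx P26 rep 3 was left out. The replicate block gave 79 calls, although the numbers did not pair the libraries (correlations of deviations -0.068 to 0.078). With Leiden clusters Mycl (-0.49) and Atoh1 (-0.19) reversed, and only 1 induced library remained.

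Of the other neurogenic genes, 12 were called in the reported fit, 23 without a filter, 2 with cells under 10% mitochondrial UMIs, 22 with at least 10 cells, 8 with no replicate block and 6 to 22 with each library left out. Leiden clusters left too few libraries. Levels of members by class moved beyond the spread in 3 of 96 gate and cluster alternatives, Insm1 in cHCs to 98.8 and 97.6 CPM and Hes6 in HCs to 33.9 CPM. Pooled ratios of cHC levels to other classes with each library left out were added after seeing the data. Beyond the filter and the left-out libraries, the causes of these changes were not tested. Depth limits every statement on Neurod1, and 4 to 43 cHCs per library limit all others.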
